A study of Mus musculus with 6 samples.

Results

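The genes described here are 6 T-box transcription factors, Tbx2, Tbx3, Tbx4, Tbx5, Tbx15 and Tbx18, taken by symbol from a table of 23358 gene entries. Each symbol matched 1 entry, and all 6 passed the filter on low counts that left 16280 genes for testing. The libraries came from chondrocytes of the mouse knee and hip (femoral condyles, tibial plateau and femoral head), isolated at post-natal day 5 from a strain given as a C57BL/6 mix. The cells were grown in 2% serum and then plated at high density as micromasses, which form cartilage in the dish, in medium with insulin, transferrin and selenium, ascorbic acid at 0.05 mg/mL and 10 mM β-glycerol phosphate, which was given to both genotypes. The groups were Ezh2-deficient micromasses at days 3, 7 and 14 and wildtype micromasses at days 3, 7 and 14, with 1 library in each, 6 in all. Ezh2 is the catalytic subunit of Polycomb repressive complex 2, which silences genes by placing methyl groups on histone H3. The titles name the deficient cells Ezh2_cKO, a conditional knockout, while the Cre driver, the deleted part of the gene and the number of animals per library are not given in the sources used here.

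T-box factors bind DNA through the conserved domain that gives the family its name, and many of them are patterning genes that Polycomb complexes keep silent where they are not used. Tbx2 and Tbx3 are mainly repressors, known for holding down cell cycle inhibitor genes. Tbx4 and Tbx5 are close relatives that act in limb bud outgrowth, Tbx4 in the hindlimb and Tbx5 in the forelimb and heart. Tbx15 and Tbx18 belong to another branch of the family; in mice, Tbx15 is needed for normal size of skeletal elements, and Tbx18 for the vertebral column, the ureter and the sinus node of the heart.

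Total counts per library ran from 51985214 to 79323302, and every count was even, so a fragment is taken as 2 counts. Ezh2 itself was at 14.7, 23.0 and 17.6 CPM (counts scaled to library size with TMM factors) in the Ezh2-deficient libraries of days 3, 7 and 14, against 24.7, 40.2 and 27.9 CPM in wildtype. Its fitted difference was -0.74 ± 0.08 (log2, SE; adjusted p = 0.0729, edgeR), which does not pass the threshold of 0.05, and reads outside the deleted part would not check the labels. All 11 chondrocyte markers had counts, with Col2a1, the main cartilage collagen, at 11449 CPM or more in every library. Their summed level was 122460, 50136 and 20361 CPM in Ezh2-deficient libraries of days 3, 7 and 14, against 126020, 71913 and 33758 CPM in wildtype. Xist, the RNA of the inactive X chromosome of females, was at 842, 677 and 513 CPM in Ezh2-deficient libraries, against 1065, 1130 and 1223 CPM in wildtype. The 4 Y-linked genes Ddx3y, Eif2s3y, Kdm5d and Uty summed to 122, 131 and 171 CPM in Ezh2-deficient libraries, against 90.8, 62.5 and 60.6 CPM in wildtype. Xist was lower and the Y-linked sum higher in the Ezh2-deficient library of each day, and the part of this in the results on genotype was not tested.

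Per length of transcript, Tbx15 was the most abundant of the 6 genes in every library. Its RPKM, the authors' value scaled by length and depth, lay between 21.2 and 41.8, while no other member exceeded 6.53. Below it the order changed with the library, and the ranges overlapped: 2.53 to 6.53 RPKM for Tbx4, 2.11 to 4.70 for Tbx18, 0.257 to 5.96 for Tbx2, 0.354 to 2.96 for Tbx5 and 0.564 to 1.59 for Tbx3. In the Ezh2-deficient library of day 14 Tbx2 stood second, ahead of Tbx4 at 3.93 RPKM and Tbx18 at 3.80 RPKM. The make-up of the family shifted with the days. At day 3 Tbx15 made up 79% of the 6 genes' summed RPKM in the Ezh2-deficient library and 83.8% in wildtype, while at day 14 it made up 57.8% in the Ezh2-deficient library and 62.2% in wildtype. The share of Tbx2 was 1.11% in the Ezh2-deficient library and 0.577% in wildtype at day 3. By day 14 it was 16.3% in the Ezh2-deficient library and 12.1% in wildtype. RPKM compares genes within a library, so the shares carry no test.

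**Figure D1:**
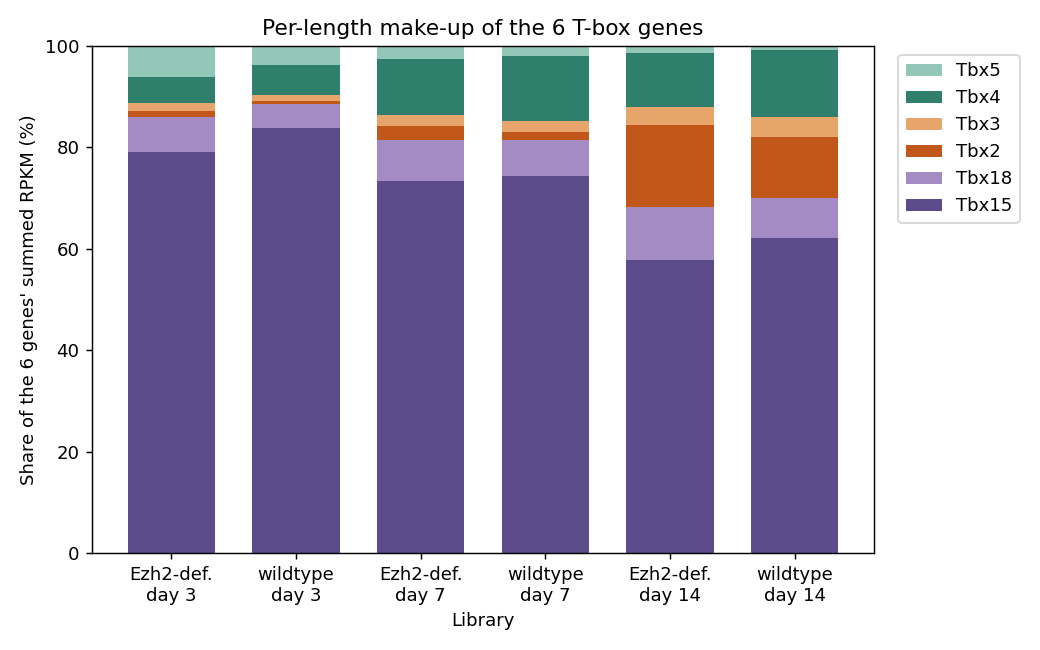
Share of the 6 T-box genes' summed RPKM (%, vertical axis) in each of the 6 libraries, ordered by day with Ezh2-deficient left of wildtype. Tbx15 holds the largest share in every bar and the share of Tbx2 is 12.1% or more in both day 14 bars, against 2.75% or less before.

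Over the culture, 3 of the 6 genes rose and 2 fell between days 3 and 14, and their courses differed in size and direction. The comparison set the 2 libraries of a day, 1 of each genotype, against those of another in edgeR's quasi-likelihood test, so the genotypes stood in for replicates. Of all tested genes 45.5% were called between days 14 and 3, with 23.2% higher and 22.4% lower, and a call among the members is common against that background. Both day 14 libraries lay above both day 3 libraries for 3 members and 35.4% of all genes, and below them for 2 members and 38% of all genes. Between days 7 and 3, 3 of the 6 were called, against 36.1% of all genes (2 members higher, against 19.5%, and 1 lower, against 16.6%). Between days 14 and 7 it was again 3 of 6, against 5.66% of all genes (1 member higher, against 3.38%, and 2 lower, against 2.29%).

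Tbx2 showed the widest rise. It was at 2.53, 6.35 and 27.7 CPM in Ezh2-deficient libraries at days 3, 7 and 14, against 1.18, 3.43 and 21.3 CPM in wildtype. Both day 14 libraries lay above all earlier ones, and each genotype climbed at both steps. The gain at day 14 over day 3 was 3.80 ± 0.23 (log2, SE), 13.9-fold, with an adjusted p = 0.000263. It was already 2.66-fold at day 7 over day 3 (adjusted p = 0.00663) and was 5.23-fold between days 14 and 7 (adjusted p = 0.00798). Within single genotypes, day 14 over day 3 was 10.9-fold in Ezh2-deficient cells (95% counting interval 8.83 to 13.7) and 18.1-fold in wildtype (13.04 to 25.65). Those intervals cover counting error over fragments only. Of all tested genes, 1.94% were called higher at day 14 over day 3 with a gain at least that of Tbx2.

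Tbx3, the closest relative of Tbx2, rose less. Its levels were 5.11, 7.17 and 8.17 CPM in Ezh2-deficient libraries and 3.70, 6.52 and 9.88 CPM in wildtype libraries at days 3, 7 and 14. The 2 day 14 libraries lay above the other 4, and the order of the genotypes at day 14 was opposite to that at days 3 and 7. Day 14 exceeded day 3 by 1.05 ± 0.22 (log2; adjusted p = 0.0138), a 2.06-fold rise, while the steps to day 7 (0.64 ± 0.22, adjusted p = 0.0714) and from there to day 14 (0.41 ± 0.22, adjusted p = 0.328) did not pass. The step to day 7 passed in DESeq2 (adjusted p = 0.041), with total counts alone (0.0407) and without the day 14 pair (0.0491). The ratio of Tbx2 to Tbx3 in RPKM was 0.706, 1.26 and 4.83 in Ezh2-deficient libraries, against 0.456, 0.751 and 3.08 in wildtype libraries, so the more abundant of the pair was Tbx3 in both day 3 libraries and Tbx2 in both day 14 libraries.

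Tbx4, the hindlimb member, peaked at day 7. It was at 10.8, 23.3 and 16.7 CPM in Ezh2-deficient libraries, against 11.1, 24.4 and 21.2 CPM in wildtype. The genotypes lay close together at days 3 and 7 and farther apart at day 14, and both day 3 libraries were below the other 4. Tbx4 was 2.17-fold up at day 7 over day 3 (1.12 ± 0.13, adjusted p = 0.00289) and 1.71-fold up at day 14 over day 3 (0.78 ± 0.13, adjusted p = 0.00623). The difference of -0.34 ± 0.13 between days 14 and 7 did not pass (adjusted p = 0.19).

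Tbx5, the forelimb and heart member, had counts in every library, although the cells came from hindlimb joints, and it fell throughout. It was at 15.3, 6.28 and 2.77 CPM in Ezh2-deficient libraries and at 8.46, 4.68 and 1.71 CPM in wildtype libraries. Each day's libraries lay below both of the day before. The fall was -1.07 ± 0.18 at day 7 against day 3 (adjusted p = 0.00882), -1.32 ± 0.19 at day 14 against day 7 (adjusted p = 0.022) and -2.39 ± 0.19 at day 14 against day 3 (adjusted p = 0.000605), the last a 5.24-fold drop. Of all tested genes 2.36% were called lower by at least as much. The ratio of Tbx4 to Tbx5 in RPKM was 0.855, 4.48 and 7.28 in Ezh2-deficient libraries, against 1.59, 6.31 and 15.0 in wildtype. Only the Ezh2-deficient library of day 3 held more Tbx5 than Tbx4 per length.

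Tbx15 held at days 3 and 7 and fell at day 14. It was at 180.0, 169.6 and 98.5 CPM in Ezh2-deficient libraries and 172.0, 155.8 and 109.8 CPM in wildtype libraries. Both day 14 libraries lay below the other 4. The fall was -0.76 ± 0.10 at day 14 against day 3 (adjusted p = 0.00313), 1.69-fold, and -0.64 ± 0.10 against day 7 (adjusted p = 0.0294), while day 7 against day 3 was -0.11 ± 0.10 (adjusted p = 0.421). Scaled by total counts alone, which moves the median of all genes by 0.21 in that comparison, the last value was 0.10.

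Tbx18 had the smallest fitted difference of the 6 between days 14 and 3. It was at 20.9, 25.04 and 23.2 CPM in Ezh2-deficient libraries, against 12.7, 19.1 and 18.1 CPM in wildtype. On each day the Ezh2-deficient library lay above wildtype, as it did for 18% of all tested genes. The genotype difference of Tbx18 did not pass in edgeR (adjusted p = 0.195). No step between days passed, with 0.42 ± 0.13 at day 7 against day 3 (adjusted p = 0.0566), 0.32 ± 0.13 at day 14 against day 3 (adjusted p = 0.0975) and -0.09 ± 0.13 at day 14 against day 7 (adjusted p = 0.712). Day 7 against day 3 passed in DESeq2 (adjusted p = 0.0433) and with total counts alone (0.0223).

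**Figure D2:**
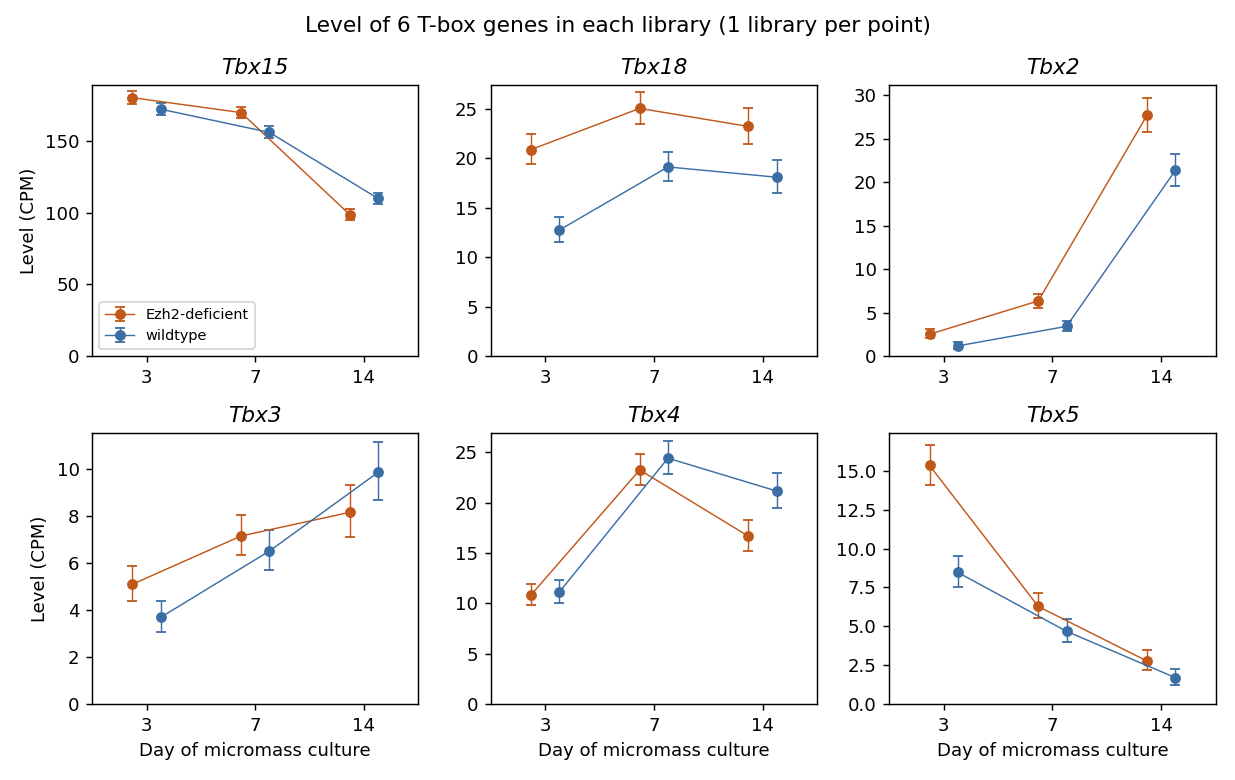
Level of each T-box gene (CPM, vertical axes starting at 0, a scale of its own per gene) against day of culture, with Ezh2-deficient points left of wildtype points, 1 library per point and bars giving the exact 95% counting interval. At day 14 Tbx2 reaches 27.7 CPM in the Ezh2-deficient library and 21.3 CPM in wildtype, and Tbx5 declines to 2.77 CPM in the Ezh2-deficient library and 1.71 CPM in wildtype. The Tbx18 point of the Ezh2-deficient library lies above that of wildtype on each day, as it does for 18% of all tested genes.

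Between the genotypes, 3 members stood above wildtype on each of the 3 days, Tbx2, Tbx5 and Tbx18, and 1 stood below on each, Tbx4. Of all tested genes 18% were above on every day and 18.3% below. In edgeR, adjusting for day and using the 3 days as replicates of a genotype, 0 of the 6 members passed, and of all 16280 genes 0.0123% did (2 genes, both lower). The fitted differences were 0.76 ± 0.17 for Tbx2 (1.69-fold, adjusted p = 0.196), 0.66 ± 0.15 for Tbx5 (1.58-fold, adjusted p = 0.201) and 0.49 ± 0.11 for Tbx18 (1.40-fold, adjusted p = 0.195). At an unadjusted p under 0.05 these 3 of 6 were higher, against 6.82% of all genes, and 13.2% of all genes reached it in either direction. Tbx4 was at -0.15 ± 0.10 (adjusted p = 0.581), Tbx3 at 0.11 ± 0.18 (0.838) and Tbx15 at 0.01 ± 0.08 (0.967). The median of the 6 was 0.30 and that of all tested genes -0.0018 (log2). The members were chosen with earlier results of these data known. The medians and the 3 of 6 therefore describe the members and do not test for an excess.

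The tools divided on these 3 genes. DESeq2 called Tbx2 (adjusted p = 0.00952), Tbx5 (0.0208) and Tbx18 (0.0207) higher, where it called 2.54% of all genes higher and 4.16% in either direction. The limma-voom fit called none of the 6 (adjusted p = 0.219, 0.142 and 0.145 for those 3) and 0.19% of all genes higher. When the day 3 libraries were left out, edgeR called 383 genes higher, 2.42% of those tested, and 0 of the 6 members, with adjusted p = 0.0882 for Tbx2, 0.236 for Tbx5 and 0.114 for Tbx18. With the day 7 or the day 14 libraries left out it called 0 genes in all, with 829 and 1601 at an unadjusted p under 0.05.

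Within single days each genotype had 1 library, so ratios have a counting interval and no replicate check. At day 3 the Ezh2-deficient library was above wildtype 2.14-fold for Tbx2 (95% interval 1.46 to 3.19), 1.81-fold for Tbx5 (1.57 to 2.10) and 1.64-fold for Tbx18 (1.45 to 1.85). At day 7 the ratios were 1.85 for Tbx2 (1.48 to 2.32), 1.34 for Tbx5 (1.10 to 1.64) and 1.31 for Tbx18 (1.19 to 1.45). At day 14 they were 1.30 for Tbx2 (1.16 to 1.45), 1.62 for Tbx5 (1.11 to 2.40) and 1.28 for Tbx18 (1.14 to 1.45). By a fixed rule of size, at least 1 CPM in the higher library, 2-fold apart and an interval that excludes 1, Tbx2 at day 3 was the only member on any day, where 1.81% of genes with that level were higher by the rule and 0.548% lower. By the same rule 2.51% were higher and 1.68% lower at day 7, and 2.58% were higher and 3.32% lower at day 14.

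The other 3 members were below wildtype at day 14, where the ratio was 0.828 for Tbx3 (0.689 to 0.993), 0.788 for Tbx4 (0.695 to 0.894) and 0.897 for Tbx15 (0.851 to 0.946). At day 3 their ratios were 1.38 for Tbx3 (1.09 to 1.75), 0.974 for Tbx4 (0.843 to 1.12) and 1.05 for Tbx15 (1.01 to 1.08). At day 7 they were 1.10 for Tbx3 (0.920 to 1.31), 0.952 for Tbx4 (0.867 to 1.05) and 1.09 for Tbx15 (1.05 to 1.13). The intervals of Tbx4 at days 3 and 7 thus included 1. Whether the genotype difference moved with time was tested as a slope per doubling of day, which passed for 0 of the 6 members and 0.614% of all genes. The slope was -0.33 ± 0.13 for Tbx2 (log2; adjusted p = 0.349), -0.33 ± 0.13 for Tbx3 (0.36), -0.16 ± 0.09 for Tbx18 (0.519), -0.13 ± 0.10 for Tbx4 (0.613), -0.10 ± 0.16 for Tbx5 (0.831) and -0.09 ± 0.08 for Tbx15 (0.658).

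**Figure D3:**
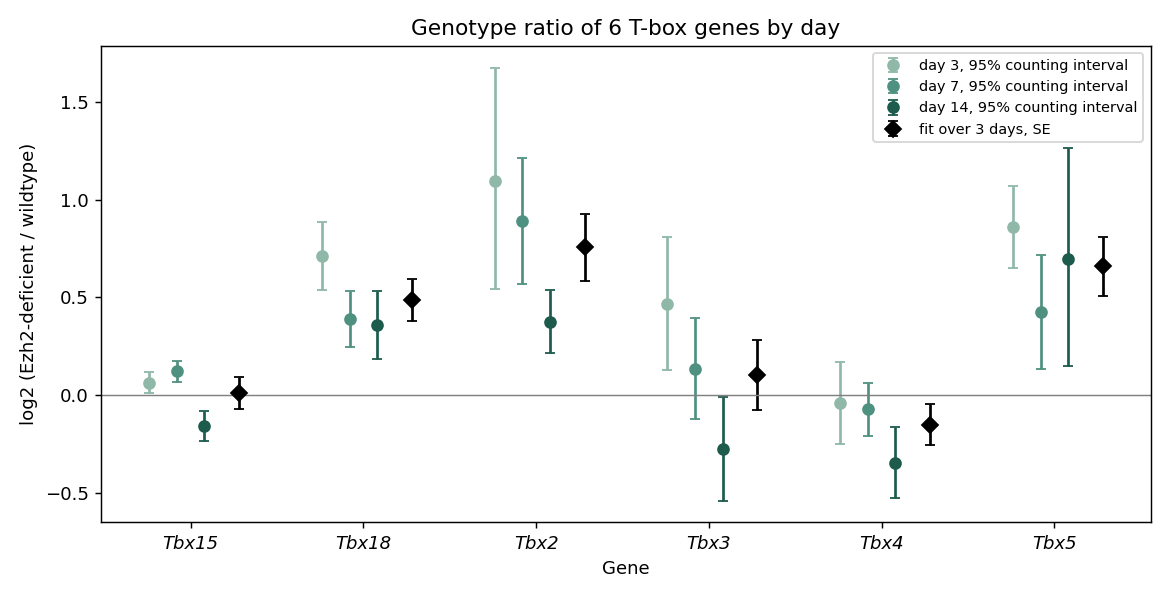
Log2 ratio of Ezh2-deficient to wildtype for each T-box gene, with circles for days 3, 7 and 14 (bars, exact 95% counting interval of 1 library against 1) and a black diamond for the fit over the 3 days (bar, SE). All 3 circles lie above 0 for Tbx2, Tbx5 and Tbx18, and the day 14 circles of Tbx3, Tbx4 and Tbx15 lie below 0.

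Promoter sequences for 2 of the 6, Tbx18 and Tbx4, are in the RefSeq table of build GRCm38.p6, which shares coordinates with the mm10 build of the counts. They are shown, as the only 2 member promoters in that table, to give the sequence at these starts and its CpG content, whose relation to the expression values was not tested. Each runs from 250 bases before the gene start to 50 after it, on the gene's strand and 5′ to 3′, with CpG dinucleotides in capitals. The Tbx18 window is chr9:87731211-87731510, minus strand, and the Tbx4 window is chr11:85896515-85896814, plus strand.
Tbx18: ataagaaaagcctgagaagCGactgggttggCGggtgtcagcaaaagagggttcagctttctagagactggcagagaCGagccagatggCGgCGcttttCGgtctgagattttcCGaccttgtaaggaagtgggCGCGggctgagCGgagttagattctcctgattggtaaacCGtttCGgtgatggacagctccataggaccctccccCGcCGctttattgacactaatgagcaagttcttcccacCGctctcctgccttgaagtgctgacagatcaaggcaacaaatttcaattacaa
Tbx4: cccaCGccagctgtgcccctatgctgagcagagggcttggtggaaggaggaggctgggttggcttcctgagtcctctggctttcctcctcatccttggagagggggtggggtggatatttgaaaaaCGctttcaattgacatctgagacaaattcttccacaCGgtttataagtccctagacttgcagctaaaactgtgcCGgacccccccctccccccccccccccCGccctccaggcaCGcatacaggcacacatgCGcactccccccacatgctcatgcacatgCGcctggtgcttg
The Tbx18 window held 15 CpG, more than 65.4% of 32841 promoters of this length, at an observed to expected ratio of 0.755. The Tbx4 window held 8 CpG, more than 51.3% of them, at a ratio of 0.314, and the median promoter had 7 CpG (quartiles 3 and 20) and a ratio of 0.384. The GENCODE annotation gives Tbx4 3 start sites, at 85886422, 85890063 and 85896765, and the window covers the last, whereas the deposited table starts the gene at 85890063. The T-box binding sequence AGGTGTGA, searched on both strands, was in neither window and in 1.28% of all promoters. Its core GGTGTG, which lies within it, was also in neither and in 19% of all promoters. No chromatin or binding data were analysed here.

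The genes lie in pairs. Tbx2 (chromosome 11, 85832615 to 85841948) and Tbx4 (85890063 to 85916097) are neighbours 48.1 kb apart with no other entry of the table between them. Tbx3 (chromosome 5, 119670669 to 119684601) and Tbx5 (119834663 to 119885218) are 150 kb apart with 1 entry between them, LOC433944, which had at most 0.085 CPM. Tbx15 (chromosome 3, 99253760 to 99354260) and Tbx18 (chromosome 9, 87702800 to 87731260) stand alone. Neighbours had different values. Day 14 against day 3 gave 3.80 for Tbx2 beside 0.78 for Tbx4, and 1.05 for Tbx3 beside -2.39 for Tbx5, and genotype gave 0.76 beside -0.15 and 0.11 beside 0.66 (all log2). The difference between neighbours was not tested. Of the flanking entries tested, AW549542, before Tbx3, was called higher between days 14 and 3 (2.98, adjusted p = 0.0184), at 0.081, 0.153 and 0.401 CPM in Ezh2-deficient libraries, against 0.061, 0.085 and 0.760 CPM in wildtype, and was at -0.10 between genotypes (0.959). Brip1, a DNA repair helicase beyond Tbx4, was at -0.44 between genotypes (adjusted p = 0.504) and 0.95 between days 14 and 3 (adjusted p = 0.0537), and Rbm19, an RNA-binding protein gene beyond Tbx5, was at 0.01 (0.986) and -0.36 (0.0691). The flanking 8430403D17Rik and Gm10390 passed neither comparison. In GENCODE, Tbx3os1, Gm43120 and D030062O11Rik overlap Tbx3, Tbx15 and Tbx18 on the other strand. The flanking AW549542 (119570129 to 119580358) coincides with the far end of Tbx3os1 (119570130 to 119671365), and whether they are 1 transcript was not tested. No source used here says whether counting used strand. Reads of these overlaps therefore cannot be told apart from the members'.

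Genes that work with or below the T-box factors were taken from lists chosen with earlier results of these data known. Of 21 limb patterning genes 19 were tested, 0 passed between genotypes, and at an unadjusted p under 0.05 the higher ones numbered 4, against 6.82% of all genes, and the lower ones 0, with a median of 0.24. They were Isl1 (1.06 ± 0.18, adjusted p = 0.127), which starts the hindlimb programme with Tbx4, Rspo2 (0.75 ± 0.18, 0.221), a Wnt enhancer, Lmx1b (0.91 ± 0.28, 0.285), which sets dorsal limb identity, and Meis2 (0.55 ± 0.13, 0.215), a marker of the proximal limb. Between days 14 and 3, 6 of the 19 rose and 5 fell, near the 23.2% and 22.4% of all genes. Rspo2 was at 4.33, 41.1 and 24.9 CPM in Ezh2-deficient libraries, against 2.00, 21.2 and 20.9 CPM in wildtype, a gain of 2.95 ± 0.24 at day 14 over day 3 (adjusted p = 0.000636). Pitx1, which specifies the hindlimb and was picked out here after its values were seen, was at 80.1, 55.97 and 21.2 CPM in Ezh2-deficient libraries, against 71.9, 56.1 and 28.9 CPM in wildtype. Its change of -1.61 ± 0.16 over the same span (adjusted p = 0.00109) stood beside 0.78 for Tbx4, and the difference was not tested.

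Of 12 genes that act with Tbx15 or Tbx18 in the skeleton or somites, 10 were tested. Between genotypes 0 passed, and the median was 0.60. At an unadjusted p under 0.05, 0 were lower and 4 were higher, against 6.82% of all genes higher. They included Alx4 and the somite genes Dll1 and Ripply1, the last 2 under 1 CPM on average and named after their values were seen. Alx4, a homeobox factor of limb and skull, was at 1.29, 4.80 and 6.50 CPM in Ezh2-deficient libraries, against 0.516, 1.53 and 2.28 CPM in wildtype (1.51 ± 0.19, adjusted p = 0.0867). Alx4 was above wildtype in each pair of libraries. Pax1, a factor of the vertebral precursors, was 0.60 ± 0.24 (0.382) and Six2, a homeobox factor, -0.58 ± 0.32 (0.495). Between days 14 and 3, 3 of the 10 rose and 0 fell, against 23.2% and 22.4% of all genes.

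Of 10 genes that Tbx2 or Tbx3 is known to repress in some tissue, 9 were tested, 0 passed between genotypes and 2 were higher at an unadjusted p under 0.05, against 6.82% of all genes. Cdkn2a, the INK4A and ARF locus, was at 1.05, 13.01 and 25.5 CPM in Ezh2-deficient libraries, against 0.667, 7.35 and 21.8 CPM in wildtype (0.55 ± 0.16, adjusted p = 0.269). Like Tbx2 it rose with the days, by 4.81 ± 0.22 at day 14 over day 3 (log2, adjusted p = 0.000163). Cdkn1a, the p21 inhibitor, was at 409, 216 and 638 CPM in Ezh2-deficient libraries, against 402, 171 and 407 CPM in wildtype (0.33 ± 0.13, adjusted p = 0.377), and its day difference of 0.33 ± 0.16 did not pass (adjusted p = 0.152). Cbr1 was at -0.09 ± 0.09 between genotypes (adjusted p = 0.695) and Ndrg1 at -0.18 ± 0.17 (adjusted p = 0.702). Of the 9, 5 rose and 1 fell between days 14 and 3, against 23.2% and 22.4% of all genes. Of 10 genes that Tbx5 activates in heart or limb, 6 were tested and 0 passed between genotypes. At an unadjusted p under 0.05 there were 0 in either direction, against 13.2% of all genes. Between days 14 and 3, 2 rose and 1 fell, against 23.2% and 22.4% of all genes. Adm, the vasodilator peptide adrenomedullin, was at 2.58, 10.9 and 21.0 CPM in Ezh2-deficient libraries, against 2.94, 12.3 and 27.9 CPM in wildtype (-0.26 ± 0.11, adjusted p = 0.402). Id2, an inhibitor of helix-loop-helix factors, was at 90.5, 55.3 and 63.1 CPM in Ezh2-deficient libraries, against 77.9, 88.7 and 88.5 CPM in wildtype (-0.32 ± 0.18, adjusted p = 0.496). Fgf10, the limb bud growth factor, was at 2.99, 9.96 and 5.80 CPM in Ezh2-deficient libraries, against 1.43, 10.5 and 8.21 CPM in wildtype (0.12 ± 0.31, adjusted p = 0.89).

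Bone morphogenetic proteins induce Tbx2 and Tbx3 in several embryonic tissues. Of 13 BMP ligands and immediate targets all were tested, and 0 passed between genotypes. An unadjusted p under 0.05 was reached by 4, against 13.2% of all genes. Of these 4, 3 were higher, against 6.82% of all genes, and 1 was lower. Bmp4 was at 4.92, 17.9 and 43.6 CPM in Ezh2-deficient libraries, against 2.21, 9.45 and 18.5 CPM in wildtype (1.10 ± 0.11, adjusted p = 0.0674), and it rose by 3.11 ± 0.14 between days 14 and 3 (adjusted p = 0.000164). Bmp2 was 0.57 ± 0.15 between genotypes (0.242), the inhibitory Smad6 0.43 ± 0.12 (0.254) and Bmp7 -1.26 ± 0.37 (0.28). Of the 13, 3 rose and 6 fell between days 14 and 3, against 23.2% and 22.4% of all genes.

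**Figure D4:**
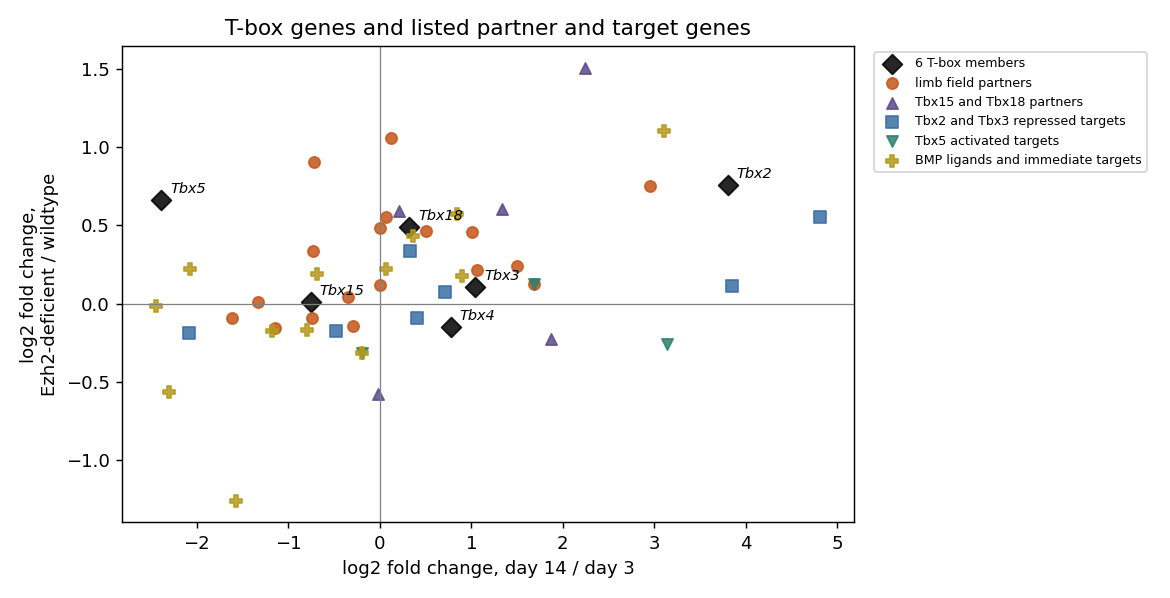
Log2 fold change between genotypes (vertical) against that between days 14 and 3 (horizontal) for the 6 T-box genes (labelled diamonds) and for tested genes of the partner, target and BMP lists with a mean of at least 1 CPM. Tbx2 and Tbx5 have like heights, 0.76 and 0.66, and lie on opposite sides of 0 on the horizontal axis, at 3.80 and -2.39.

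Markers of other cell types moved along with these genes, and their part in the results was not tested. In bulk libraries, fewer cells of a type and less RNA per cell cannot be told apart. Among all tested genes, 23.2% were called higher and 22.4% lower between days 14 and 3. Between genotypes, 6.82% of them were higher at an unadjusted p under 0.05, and 13.2% reached it in either direction. All 11 osteoblast markers rose between days 14 and 3, as Tbx2 did, and 0 passed between genotypes, with 11 of 11 higher at an unadjusted p under 0.05. They summed to 1438, 8440 and 96883 CPM in Ezh2-deficient libraries, against 877, 6890 and 45017 CPM in wildtype. Most of the day 14 sums was Col1a1 and Ibsp. These were at 62973 and 29943 CPM in the Ezh2-deficient library, against 34578 and 8245 CPM in wildtype. All 11 chondrocyte markers fell over the days, as Tbx5 and Tbx15 did, and 7 were lower between genotypes at an unadjusted p under 0.05. Of 11 tested fibroblast and perichondrium markers 9 rose over the days. Their list summed to between 3559 and 61129 CPM in Ezh2-deficient and between 2650 and 37459 CPM in wildtype libraries. Col1a2 was the largest part of the day 14 sums, at 52318 CPM in the Ezh2-deficient library and 26762 CPM in wildtype. Col3a1 and Lum came next at day 14, at 5629 and 1325 CPM in the Ezh2-deficient library, against 7161 and 1874 CPM in wildtype. Between genotypes 0 of the 11 passed, and the unadjusted p was below 0.05 for 4 higher and 3 lower markers. Of 12 smooth muscle and pericyte markers, where Tbx18 is a known gene, 5 rose and 2 fell, and 6 differed between genotypes at an unadjusted p under 0.05, 5 higher and 1 lower. They summed to between 850.4 and 1275 CPM in Ezh2-deficient and between 774 and 1598 CPM in wildtype libraries. Cspg4 was the most abundant of them in every library and weighs most in these sums. It was at 902, 364 and 447 CPM in Ezh2-deficient libraries, against 1379, 529 and 392 CPM in wildtype. Of 10 adipocyte markers 6 rose, and 9 were higher between genotypes at an unadjusted p under 0.05, with sums of 257, 1040.1 and 522 CPM in Ezh2-deficient libraries, against 117, 669 and 395 CPM in wildtype. All 9 macrophage markers rose over the days. They summed to 117, 1532 and 3012 CPM in Ezh2-deficient libraries, against 156, 1488.5 and 2209 CPM in wildtype. Lyz2 was the largest part of the day 14 sums, at 1803 CPM in the Ezh2-deficient library and 1149 CPM in wildtype. Between genotypes 0 macrophage markers passed, and the unadjusted p was below 0.05 for 1 higher marker and 1 lower marker. Endothelial markers summed to between 2.34 and 5.95 CPM in Ezh2-deficient and between 3.06 and 6.58 CPM in wildtype libraries. Mesothelial and epicardial markers, of cells where Tbx18 is prominent, summed to at most 1.27 CPM in any library, and Wt1, which defines them, was at most at 0.539 CPM. Skeletal and heart muscle markers summed to at most 1.69 CPM, and only 1 of 9 passed the filter on low counts. Tbx5 and Tbx20 are prominent in heart muscle.

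The rest of the family was almost silent. Of 11 other T-box genes, Tbx19 and Tbx22 had 0 counts in all 6 libraries, which allows at most 0.114 CPM by a floor of 3 fragments. T (Brachyury), Eomes, Tbr1, Tbx1, Tbx10, Tbx20 and Tbx21 had at most 14 counts in any library. Tbx6, a somite gene, had 20 to 52 counts, 0.284 to 0.949 CPM. Mga, a Max partner that carries a T-box, was the exception at 143, 140.0 and 143 CPM in Ezh2-deficient libraries, against 141, 132 and 155 CPM in wildtype (-0.01 ± 0.08, adjusted p = 0.983), and 0 of the 2 tested genes, Tbx6 and Mga, passed in either comparison.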

How the data were processed

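Gene counts and RPKM values were deposited by the authors for 6 libraries of total RNA, in 1 table. Per the submitters' processing notes, CASAVA, TopHat, HTSeq and the mm10 build were used; their roles and the strand setting are not given in the sources used here. Members and lists were chosen with earlier results of these data known. From the deposited counts, genes were filtered (filterByExpr, minimum count 10) and tested with edgeR 4.0.16 (R 4.3.3) by its quasi-likelihood test with TMM factors, genotype and day as factors, 2 residual degrees of freedom and Benjamini-Hochberg adjustment at 0.05. The SE is the log2 fold change over the root of F. A second fit took the slope of genotype over log2 day, with 1 residual degree of freedom. Genotypes and days thus served as each other's replicates, and p-values measure the spread between these libraries only. Single-day ratios have exact (Clopper-Pearson) 95% intervals over fragments, and they and the floor of 3 fragments cover counting error only. Levels are CPM with TMM factors, and genes were compared in the authors' RPKM. The genes named are the members, other T-box genes, neighbours, and up to 4 per list with the smallest genotype p and a mean of at least 1 CPM; 2 genes these rules pick are not reported here. DESeq2 1.42.0, limma 3.58.1 and other scalings were alternatives.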

Additional observations from a re-analysis of the deposited data

How the results depend on the processing

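All 60 alternative values of the members between days 14 and 3, all 60 between days 14 and 7 and all 54 of the slopes kept their direction and their side of the threshold, as did 65 of 72 between genotypes and 54 of 60 between days 7 and 3. DESeq2 called Tbx2 (0.77), Tbx5 (0.67) and Tbx18 (0.50) between genotypes. With the day 3 pair left out, Tbx3 was at -0.069 and Tbx15 at -0.017; Tbx15 was at -0.0082 with total counts and -0.049 when the day 7 pair was dropped. Tbx15 between days 7 and 3 was 0.10 with total counts, which shift the median of all genes by 0.21 there and by -0.14 between days 14 and 7. The count of genes called between genotypes, 2, became 9 with RLE factors, 0 with total counts (2042 at an unadjusted p under 0.05), 9 with no filter, 1 at a minimum count of 50, 625 in DESeq2, 40 in limma-voom, 8 with robust dispersion, 863 with the day 3 pair left out, and 0 with the day 7 pair (829 at an unadjusted p under 0.05) or the day 14 pair (1601) left out. Between days 14 and 7 it was 922, against 1960 in DESeq2 and 2276 without the day 3 pair. For the slope it was 100 in edgeR, against 270 with total counts, 247 with no filter, 0 at a minimum count of 50 (1935 at an unadjusted p under 0.05), 339 in DESeq2 and 0 with counts divided by 2 to give fragments (2095). The cause was not tested. The genotype fit sets the 2 libraries of each day against each other, and the labels carry no replicate numbers for another block. With 1 library per genotype and day, 90 counts of Tbx5 and 78 of Tbx2 are the lowest member values and set the widest intervals.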

Other observations

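For each T-box gene, the 3 genes with the most similar course over the 6 libraries were taken by Pearson's r of log2 CPM among 12172 genes with a mean of at least 1 CPM. The 6 points share depth and the day and genotype of each library, so r is a description. It does not depend on the size of a change. For Tbx2 they were Aplp1 (r = 0.9997), Galr2 (0.997) and the osteoblast membrane protein gene Tmem119 (0.996), which is also among the osteoblast markers. Tmem119 was at 29.3, 83.2 and 734.6 CPM in Ezh2-deficient libraries of days 3, 7 and 14, against 12.95, 40.5 and 371 CPM in wildtype. For Tbx3 they were Cpped1 (0.998), Zc3h13 (0.996) and Prkaa1 (0.993), and for Tbx4 Enpep (0.998), Dfna5 (0.998) and Sri (0.997). Enpep, an aminopeptidase of the cell surface, was at 8.07, 50.7 and 21.1 CPM in Ezh2-deficient libraries, against 9.04, 54.7 and 36.1 CPM in wildtype, with the day 7 peak of Tbx4. For Tbx5 they were Lmbr1 (0.995), Cnksr3 (0.992) and Prdm16 (0.989). Lmbr1 changed far less than Tbx5, at 19.7, 17.4 and 16.2 CPM in Ezh2-deficient libraries, against 18.5, 17.2 and 15.35 CPM in wildtype. For Tbx15 they included Arxes1 (0.994) and Htra2 (0.992), and for Tbx18 they were Igf2bp1 (0.992), Mtmr9 (0.991) and Adc (0.985). Mtmr9 stayed between 31.6 and 34.3 CPM in all 6 libraries.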
